A study of Caenorhabditis elegans with 2 samples.

Results

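Peaks of the BED-1 protein were examined at 6 genes known as regulators of moulting and of the epidermis: nhr-23, nhr-25, blmp-1, grh-1, lin-42 and bed-3. They were listed by name, out of 19973 protein-coding genes of the nuclear chromosomes. Chromatin immunoprecipitation with sequencing (ChIP-seq) had been done on whole Caenorhabditis elegans of strain RW12201, young adults of 63 hours, after larvae of the first stage were starved for synchrony. In this strain CRISPR put a TY1::EGFP::3xFLAG tag into bed-1 at its own place on chromosome V, and an antibody against green fluorescent protein pulled the tagged protein down. All worms came from this 1 strain. There was 1 group of 2 biological replicates, so no test between conditions was possible, and the control that the labels name as possible was not analysed here. Whole animals were used, so the peaks come from every tissue together and cannot be assigned to the epidermis.

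The epidermis of the worm secretes a collagenous cuticle that is shed and rebuilt at each larval moult. Nuclear hormone receptors NHR-23 and NHR-25, the zinc finger protein BLMP-1 and the Grainyhead relative GRH-1 are known to act in rounds of gene activity that go with each cycle, and LIN-42, a relative of the circadian protein Period, is known to time them. BED-3 is a zinc finger protein of the BED class, as BED-1 is by name, and acts in the moults and in the vulval lineage. These programmes belong to larvae, whereas the samples were of young adults.

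Every peak of the authors' ranked list whose summit lay inside a gene, or within 1000 bases of one of its annotated starts, was given to that gene. This gave 92 peaks at the 6 genes, out of 120637 in the whole list. Stretches of the plus strand of ce11 at some of the strongest peaks follow, to show what kinds of sequence lay there, cut at 75 bases to either side of the summit and shortened where they would run into a UTR, with every GGACC or its reverse complement GGTCC in capitals. They are the strongest and second strongest lin-42 peaks (chrII:1237154-1237304 and chrII:1239630-1239780), the peak at the start codon of bed-3 (chrIV:9916547-9916668) and the strongest nhr-25 peak (chrX:13007649-13007799), shown because it was the lowest of the 6 strongest peaks.
lin-42, strongest: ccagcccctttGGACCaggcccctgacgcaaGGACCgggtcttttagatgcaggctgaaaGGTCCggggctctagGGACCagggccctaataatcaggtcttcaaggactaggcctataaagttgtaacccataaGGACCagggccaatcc
lin-42, second: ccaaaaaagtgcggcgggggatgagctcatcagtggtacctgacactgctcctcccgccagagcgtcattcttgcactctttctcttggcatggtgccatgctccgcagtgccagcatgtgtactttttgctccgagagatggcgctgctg
bed-3, start codon: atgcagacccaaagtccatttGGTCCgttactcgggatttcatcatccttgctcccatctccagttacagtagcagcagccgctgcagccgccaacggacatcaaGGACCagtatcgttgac
nhr-25, strongest: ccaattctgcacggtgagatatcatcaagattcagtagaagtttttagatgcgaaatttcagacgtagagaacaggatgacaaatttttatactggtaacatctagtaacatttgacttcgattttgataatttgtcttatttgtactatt

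The short word in capitals was chosen after these sequences had been read, and their peaks are among the 92 counted here. Its share in the 92 is thus not independent of that choice. It stood 5 times at the strongest lin-42 peak, 2 times at the bed-3 start codon and 0 times at the other pair. In windows of 201 bases around the summit, 17 of the 92 peaks (18.5%) held it on either strand, against 11.8% of all ranked peaks and 14.9% of the authors' main final list. The word is mostly G and C, and these windows differed in GC content. Its median was 42.3% at the 92 peaks, 38.3% over all ranked peaks and 45.8% in the main final list. The shares were not adjusted for this. At least 5 copies were found in 113 windows of the whole ranked list (0.0937%), 4 of them in the main final list. The lin-42 stretch was rich in G and C (56.3%), as was the second one (57.0%), whereas the nhr-25 stretch was not (31.8%). Words known to be bound by BED zinc finger proteins of Drosophila were not more frequent at these peaks than in the list. CGATA, searched on both strands, was in 15 of the 92 windows (16.3%), against 19.8% of all ranked peaks, and the longer TATCGATA, which contains it, was in 0 of 92, against 0.290%.

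One of the 92 peaks was in the authors' main final list, and it lay in nhr-23. The lists rank each peak by its signal, the authors' own value on a scale that no source states, and by the irreproducible discovery rate (IDR), which is low where a peak ranks high in both compared peak sets. At a global IDR at or under 0.01, 1 of the 92 peaks passed, against 704 of the 120637 ranked peaks (0.584%), and the same peak was in the main final list, which held 0.488% of the ranked peaks. Among genes this was 1 of 6, against 479 of 19973 protein-coding genes (2.40%). These were long genes with many peaks, and among the 3687 genes with at least 8 ranked peaks, the fewest of any of the 6, 195 (5.29%) had a main-list summit. With 6 genes, chosen with earlier results of these data known, this count was not tested.

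The ranked list holds far more peaks than the final lists. It covered 30.8% of the nuclear genome, and 92.6% of protein-coding genes had at least 1 peak in it. The 589 peaks of the main final list had a median signal of 77.9, and the ranked list one of 23.5, with quartiles of 14.9 and 33.1. The conservative final list held 523 peaks, and the replicates' own final lists held 91 peaks for replicate 1 and 99 for replicate 2. No read counts were used, so the depth behind a signal is unknown and no interval that needs it is given.

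**Figure D1:**
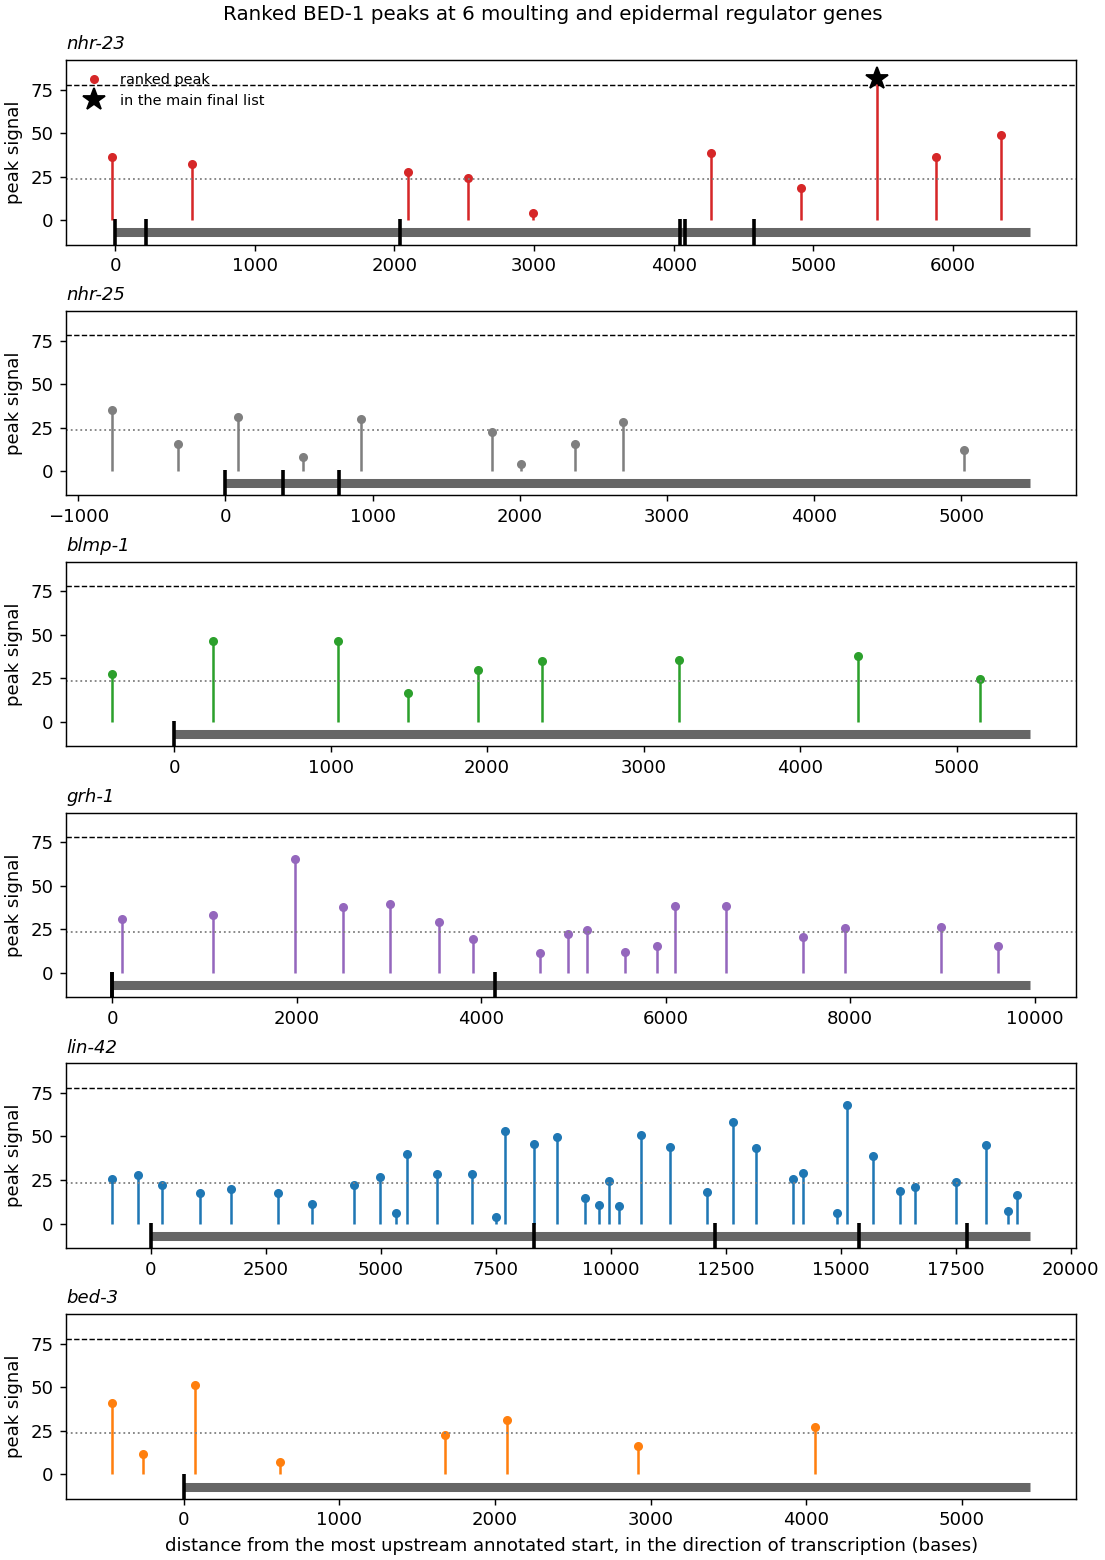
Signal of each ranked peak (vertical axis, the authors' scale) against the distance of its summit from the most upstream annotated start, in bases along the direction of transcription, for the 6 genes. Grey bars are the genes, black ticks the annotated starts, the dotted line the median of all ranked peaks (23.5) and the dashed line the median of the main final list (77.9); the star marks the peak of nhr-23 at 81.3, the 1 peak above the dashed line.

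nhr-23 encodes the worm relative of the ROR nuclear receptors and is known to be required for moulting. The gene (WBGene00003622) lies on chromosome I at 7214745 to 7221299 on the plus strand, with 6 annotated starts and 10 ranked peaks. Its signals ran from 3.92 to 81.3, with a median of 34.4. The strongest peak spanned 7220068 to 7220327 with its summit at 7220198, in a coding exon towards the 3' end of the gene, 880 bases past the nearest start. Its signal of 81.3 was the 341st highest of the ranked list, and 239 of the 589 main final peaks were as high or higher. The replicates' own ranked lists gave this peak 37.7 in replicate 1 and 37.2 in replicate 2, so the replicates were nearly equal here. Its global IDR was 0.00746 in the ranked list behind the main final list and 0.00543 in the ranked list that compared the replicates.

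That site was in the conservative final list as well, but in neither replicate's own final list. In those replicates' own ranked lists its global IDR was 0.161 for replicate 1 and 0.825 for replicate 2. The sequence around the summit was unique in the genome for all of its words of 31 bases, and no other annotated gene lay at the summit or had a start within 1000 bases of it. The next peaks of nhr-23 were a site in the 3' UTR at 7221091 (signal 48.8, IDR 0.0622) and one in a coding exon at 7219008 (signal 38.8, IDR 0.251). At the most upstream start, a peak 21 bases before the first base had a signal of 36.5, with 17.7 and 6.75 in the 2 replicate columns of the list that compared the replicates. The peak at the first start was thus lower, and less even between the replicates, than the one in the coding exon.

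lin-42 is the largest of the 6 genes and held the most peaks. It lies on chromosome II at 1233236 to 1252359 on the minus strand (WBGene00018572), with 5 annotated starts that give long and short proteins known to differ in their Period-like domains. It had 37 ranked peaks, or 1.84 per kilobase searched, a density above that of 86.6% of protein-coding genes, with signals from 3.89 to 68.3 and a median of 24.6. Peaks covered 45.8% of the gene. The strongest, with its summit at 1237229, lay in an intron of the longer forms and 260 bases upstream of the start of a shorter form at 1236969. It is the GC-rich stretch with 5 copies of GGACC shown above.

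That lin-42 peak had a signal of 68.3 and failed the threshold, with a global IDR of 0.0130, and of 0.0266 in the list that compared the replicates. In the replicates' own ranked lists it had 24.1 in replicate 1 and 41.4 in replicate 2. At a laxer IDR of 0.05, 2 of the 92 peaks passed, this one and that of nhr-23, against 2.46% of all ranked peaks. In the list that compared the replicates, 5 of 93 peaks at the 6 genes were under 0.05, against 2.27% of that whole list: the nhr-23 peak, the strongest grh-1 peak and 3 at lin-42. Of those at lin-42, the peak at 1237430 overlapped the strongest one and rested on the same compared pair. Second in the gene was the coding exon site at 1239705, 396 bases past the start at 1240101, with a signal of 58.5, an IDR of 0.0504 and 27.1 and 31.9 in replicates 1 and 2. Another peak stood at 1244657, 622 bases upstream of the inner start at 1244035 (signal 52.9, IDR 0.0622), and an intron held one at 1241699 (signal 50.8, IDR 0.106). The replicates were far apart at the intron site, where replicate 1 had 39.0 and the log2 ratio of the second over the first replicate column was -1.38.

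The most upstream start of lin-42 had no high peak. Nearest to 1252359 were a peak at 1252103, inside the gene (signal 22.3), and one at 1252622, 263 bases before it (signal 28.1). Of the 22 peaks at or past the inner start at 1244035, 13 were above the median of the ranked list, against 7 of the 15 peaks before it. Their signals ran from 5.88 to 68.3, against 3.89 to 52.9 before that start, so the ranges overlapped. Some sites of the upstream part lay in repeated sequence, and at 1250617, 1251286 and 1253193 the unique share of words of 31 bases was 7.60%, 14.6% and 21.1%. No lin-42 peak was in a final list, and the nearest main-list summit was 87477 bases away.

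GRH-1 is the worm Grainyhead factor, known in many animals for building epidermal barriers. Its gene lies on chromosome I at 1258201 to 1268155 on the minus strand (WBGene00001707) and had 18 ranked peaks with signals from 11.4 to 65.6 and a median of 26.1. The strongest had its summit at 1266178, in an intron 1976 bases past the nearest annotated start. Its replicates were close, with 30.8 in replicate 1 and 29.1 in replicate 2, and its IDR was 0.0900, or 0.0272 in the list that compared the replicates. The next highest grh-1 peak, at 1265139, had 39.3, and the peak in the coding exon at the start, 104 bases past it, had 30.9. Most grh-1 summits lay in partly repeated sequence, which the peak count and the median include. The unique share of words of 31 bases was lowest at 1267060 (31.0%) and 1259174 (48.0%), and it was 86.5% at 1265139. At the other grh-1 sites, the strongest peak and the start peak among them, the sequence was either partly repeated or unique throughout, and at these 2 peaks it was unique throughout. The nearest main-list summit was 188358 bases away.

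bed-3 is named, like the tagged gene, for its BED finger, and in the ranked list its peaks were highest around its single annotated start. It lies on chromosome IV at 9916524 to 9921967 on the plus strand (WBGene00009133) and had 8 ranked peaks, with signals from 7.03 to 51.5 and quartiles of 15.2 and 33.5. The strongest summit, at 9916593, lay 69 bases past the start in the first coding exon, in the stretch that begins with the start codon shown above. Next came a peak 461 bases upstream of the start (signal 40.8), inside the non-coding RNA gene F25H8.15. The replicate columns went apart at the start codon, with 10.8 in the first and 35.9 in the second, and its IDR was 0.176. Neither replicate's own ranked list had a summit in that peak. F25H8.15 and a second non-coding RNA gene, F25H8.17, had starts 442 and 181 bases from its summit, on the other strand. In the replicates' own lists the strongest bed-3 summits lay farther inside the gene, away from the start. They were at 9920512 in replicate 1 (signal 17.6) and at 9918180 in replicate 2 (signal 20.2). The nearest summit of the main final list was 401726 bases from the gene, and that of the conservative list was 63805.

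The other bed genes had no passing peak inside them or within 1000 bases of a start either. bed-1, the tagged gene, had 6 ranked peaks with 48.7 as the highest (IDR 0.113, in a coding exon), and bed-2 had 13 with 40.4 as the highest (IDR 0.260). A summit of both the main and the conservative final list (V 19126055, signal 75.5) lay 1133 bases upstream of bed-1, just outside the searched window. For bed-2 the nearest main-list summit was 28538 bases away. The strongest peak of each of these 3 bed genes failed the IDR threshold of 0.01. A main-list summit was found at 2.40% of all protein-coding genes and at 5.29% of those with at least 8 ranked peaks. Among the strongest peaks of protein-coding genes the bed genes stood at the 81.5th (bed-3), 75.3rd (bed-1) and 52.8th (bed-2) percentile. Among genes with at least 8 ranked peaks, bed-3 stood at the 62.4th and bed-2 at the 24.1st percentile, while bed-1 had too few peaks to be ranked there.

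blmp-1 encodes a zinc finger protein related to BLIMP, known to keep chromatin of cycling epidermal genes open. On chromosome I at 10409302 to 10414773 (WBGene00003847, plus strand), it had 9 ranked peaks with signals from 16.4 to 46.6 and a median of 34.9, the highest median of the 6 genes. The strongest had its summit at 10409549, in an intron 247 bases past the start, with 18.2 in replicate 1 and 32.3 in replicate 2 (IDR 0.114). A coding exon site at 10410350 was as high in signal (46.4), and there the replicates had 27.2 and 25.9 in replicates 1 and 2, with an IDR of 0.231. In the list that compared the replicates, this site had an IDR of 0.0561, against 0.106 for the intron site. Of its 9 peaks, 8 were above the median of the ranked list, and none passed the threshold. The nearest main-list summit lay 47970 bases away.

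nhr-25, the relative of the insect receptor FTZ-F1 and known for roles in epidermal and vulval development, had the lowest strongest peak and the lowest median signal of the 6 genes in the ranked list. In replicate 1's own list the strongest peak of bed-3 was lower. The gene lies on chromosome X at 13008493 to 13013964 on the plus strand (WBGene00003623), with 3 annotated starts and 10 ranked peaks. Signals ran from 4.11 to 35.1, with a median of 19.1, and 4 of the 10 were above the list's median. The highest was 769 bases upstream of the first start, with 25.6 and 13.2 in the 2 replicate columns and an IDR of 0.389. The non-coding RNA genes F11C1.12 and F11C1.13 had starts 695 and 505 bases from that summit. Its strongest peak stood at the 35.8th percentile of those of protein-coding genes, and the nearest main-list summit was 32428 bases away.

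By strongest peak the genes ranked nhr-23 (81.3), lin-42 (68.3), grh-1 (65.6), bed-3 (51.5), blmp-1 (46.6) and nhr-25 (35.1). Among the genes with 8 or more ranked peaks, these stood at the 98.1st, 93.5th, 90.8th, 62.4th, 45.2nd and 9.49th percentile in the same order. These percentiles do not adjust for the number of peaks, which was 37 at lin-42 and 18 at grh-1, against a median of 11 in those genes. The replicates' own lists did not keep the order by strongest peak. In replicate 1 the strongest peaks were 39.0 at lin-42, 37.7 at nhr-23, 30.8 at grh-1, 27.2 at blmp-1, 25.6 at nhr-25 and 17.6 at bed-3. Replicate 2 had 41.4 at lin-42, 37.2 at nhr-23, 32.3 at blmp-1, 29.4 at grh-1, 20.2 at bed-3 and 17.1 at nhr-25. Both replicates thus put lin-42 and nhr-23 above the other 4 genes, while the order within that pair, and among the other 4, changed between lists. Numbers of own peaks differed too, with 17 and 22 at lin-42 but 2 and 3 at bed-3 in replicates 1 and 2. The percentile of the strongest peak among all peaks of a list moved most at bed-3, which stood at 96.1 in the ranked list but at 54.7 in replicate 1's own list and 60.0 in replicate 2's. At nhr-25 it was 79.1 in the ranked list, 87.4 in replicate 1's and 42.8 in replicate 2's.

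nhr-23 was also the gene where the replicates' strongest summits met. They lay 62 bases apart, at 7220188 in replicate 1 and 7220250 in replicate 2. At the other 5 genes the strongest summits of the replicates were farther apart, from 894 bases at blmp-1 to 4664 bases at grh-1. The grh-1 distance rested on a near tie, since replicate 2 had 29.4 at its strongest summit and 29.1 at replicate 1's. The nhr-23 peak also passed the IDR in the list that compared the replicates, so its match is not separate from that call. The share of all genes with such a match was not computed.

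**Figure D2:**
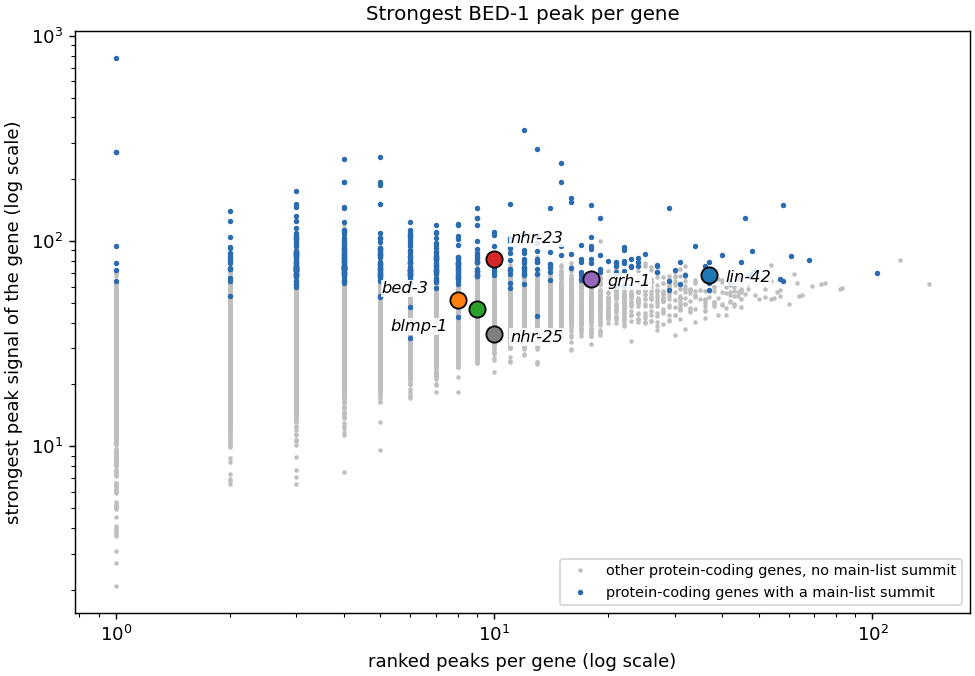
Strongest peak signal of a gene against its number of ranked peaks, both on log scales, for the 6 genes (large labelled points) and the other protein-coding genes with at least 1 ranked peak (small points, blue where the gene has a main-list summit). nhr-23 lies high among genes with 10 peaks at 81.3, and nhr-25, with as many peaks, lies low at 35.1.

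Over all 92 peaks, signals were slightly above those of the whole list. Their median was 26.5, against 23.5 for all ranked peaks, and 55 of them (59.8%) were above that median. The top 5% of the list held 8 of them (8.70%), and the top 1% held 3 (3.26%), at nhr-23, lin-42 and grh-1. By place, 51 summits lay in introns with a median signal of 24.3, 23 in coding exons with 34.9, 8 outside the gene near a start with 27.8, 7 in 3' UTRs with 16.5 and 3 in 5' UTRs with 31.0. Not all rows were separate sites, since 21 of the 92 overlapped another peak of the same gene.

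Signals of the replicate peaks paired at each row varied widely. The ranked list that compared the replicates held 89 of the 92 peaks. It gave the signal of the peak paired from each replicate, in 2 columns with no name. The paired peaks need not lie at the same place, so their ratio is not purely a spread between replicates at 1 site. Values of the first column recurred in replicate 1's own list for 42 of the 89 peaks and in replicate 2's for 0, and values of the second recurred in replicate 2's for 53 and in replicate 1's for 0. The log2 ratio of the second over the first column had a median of 0.21 and an SD of 1.03 over the 89 peaks, against 0.13 and 1.10 over all 121039 peaks of that list. At 61 of the 89 peaks (68.5%) the columns were within 2-fold of each other, against 65.8% of all peaks, and the ratio ran from -2.44 to 3.26. At the lowest ratio, for the bed-3 summit at 9917145, the paired peaks began at 9916943 and 9917152. Spearman's rho between the columns was 0.30 over the 89 peaks and 0.25 over all peaks, as a description, since peaks share libraries and 14 of the 89 shared the same compared pair with another row.

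**Figure D3:**
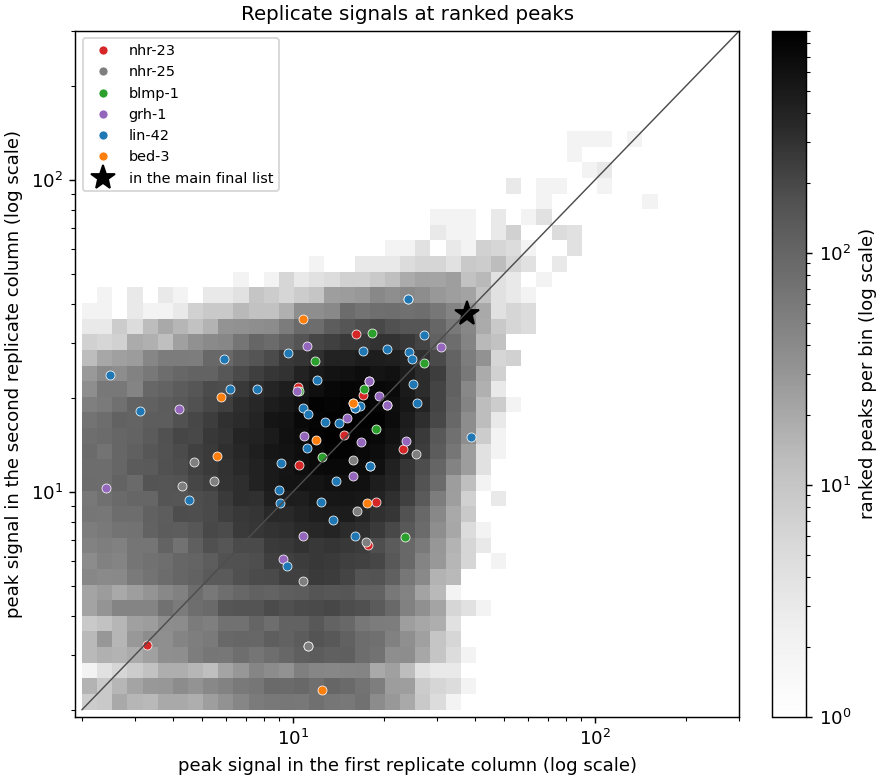
Peak signal in the second against the first replicate column, both on log scales, for the 89 peaks of the 6 genes (coloured points) over the density of all 121039 peaks of that list (grey bins). The line marks equal signals; the star is the nhr-23 peak with 37.7 and 37.2, on the line at the upper edge of the dense cloud.

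Other genes that act in the same tissue and cycle were set beside the 6. Of 22 further regulators of epidermal fate and timing, 21 were matched by symbol and 20 had a ranked peak, and 3 of the 21 (14.3%) had a main-list summit, against 2.40% of all protein-coding genes and 5.29% of those with at least 8 ranked peaks. This difference was not tested, and the list was chosen with earlier results of these data known. The genes with a main-list summit, lin-29, daf-12 and kin-20, had 31, 44 and 18 ranked peaks. Genes with at least 8 had a median of 11, so that comparison does not match the number of peaks. lin-29, a zinc finger gene of the switch to the adult epidermis, had its site in the 3' UTR (II 11917675, signal 79.3, IDR 0.00330), with 32.2 and 46.7 in the 2 replicate columns. kin-20, a casein kinase gene whose insect relative Doubletime acts on Period, had its site 144 bases upstream of a start (X 15277908, signal 69.7, IDR 0.00942), with 35.9 and 33.1. daf-12, a steroid receptor gene of developmental timing, had its site in an intron (X 10652216, signal 66.2, IDR 0.00740), with 29.9 and 37.5. lin-41, an RNA-binding timing gene, had 68.6 in a coding exon and failed the threshold (IDR 0.0355).

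Of 28 genes that make and shed the cuticle, 0 had a main-list summit, a count too small to set apart from the 2.40% of all protein-coding genes or the 5.29% of those with at least 8 ranked peaks. In this list 26 genes had a ranked peak, and the strongest were in coding exons of mlt-11, a protease inhibitor gene (65.7, IDR 0.0252), nas-37, an astacin protease gene needed to shed the old cuticle (65.4, IDR 0.0170), and mlt-4, an ankyrin repeat gene (64.7, IDR 0.0390). At the laxer IDR of 0.05, genes with a passing peak were 2 of the 6 (nhr-23 and lin-42), 8 of the 21 other regulators and 8 of the 28 cuticle genes, against 11.1% of all protein-coding genes and 25.2% of those with at least 8 ranked peaks. The median strongest signal was 58.5 for the 6 genes, 52.2 for the other regulators and 45.0 for the cuticle genes, against 39.6 for all genes and 47.9 for those with at least 8 peaks. Median numbers of peaks were 10, 10.5 and 7 per gene, against 4 for all genes.

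Larger families of transcription factors gave a scale for these counts. Among 269 nuclear hormone receptor genes, which include nhr-23 and nhr-25, 6 (2.23%) had a main-list summit: nhr-17 (94.2), nhr-51 (87.8), nhr-23 (81.3), nhr-254 (79.4), nhr-141 (69.2) and nhr-131 (68.2). Of 63 homeobox ceh genes, 2 (3.17%) had one, ceh-43 (71.7) and ceh-83 (68.3), while ceh-60 (71.9, IDR 0.0522) and ceh-38 (69.8, IDR 0.0483) failed. The median strongest signals were 39.8 and 38.2, with medians of 5 and 4 peaks per gene.

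**Figure D4:**
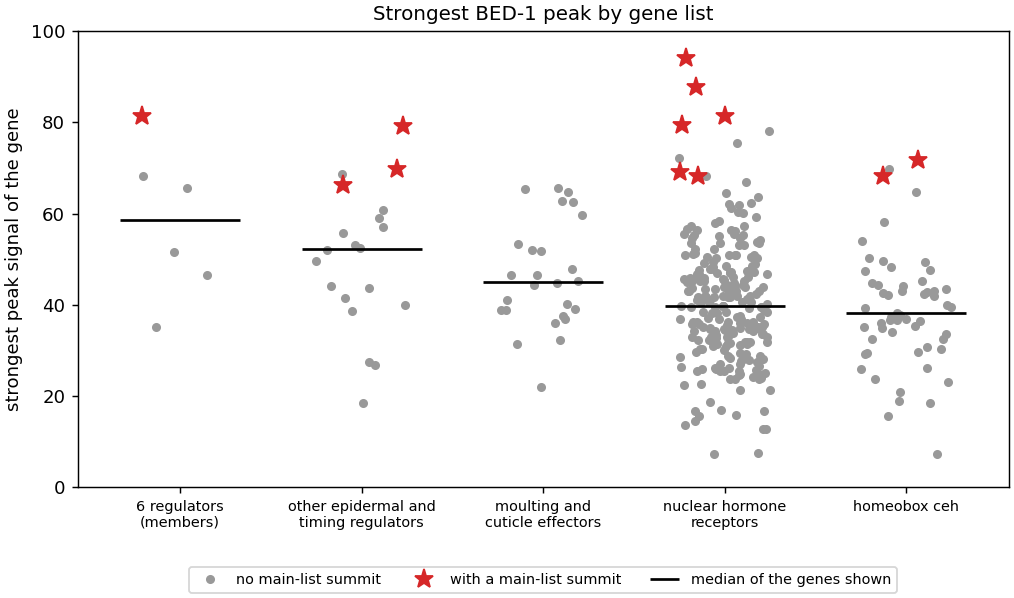
Strongest peak signal (vertical axis, the authors' scale) of each gene with a ranked peak, for the 6 regulators, the 20 other regulators, the 26 cuticle genes, 250 nuclear hormone receptor genes and 57 homeobox ceh genes. Bars are medians (58.5, 52.2, 45.0, 39.8 and 38.2) and red stars are genes with a main-list summit, which the cuticle genes lack; horizontal spread within a list is for display.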

How the data were processed

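ChIP-seq peak lists of 2 biological replicates were used; the genome build is ce11 per the labels, and the deposited file descriptions name alignments and further files as inputs. No source used here names the aligner or the caller of peaks. Peak signal is as the authors deposited it, on a scale that is not given, and the −log10 global IDR per peak in the ranked lists is also deposited. Per the deposited descriptions, the main and conservative lists belong to the series and derive from both replicates, and each replicate has its own ranked and final list; whether reads were pooled first is not stated. The depth is unknown.

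Coordinates are 1-based. Genes and starts came from Ensembl release 115 (WBcel235), sequence from RefSeq's genome of that assembly, and all 362577 peaks lay within its chromosomes. Summits inside a gene or within 1000 bases of a start were assigned to it (Python 3.11.15, pandas 2.3.3), after a check of this step on simulated data. Ranked peaks were matched to the main final list and the conservative ranked list by identical coordinates, and to the conservative final list by overlap. Percentiles are within 1 list. No test was run. Alternatives were other windows, lists, IDR thresholds and single replicates. Members and gene lists were chosen with earlier results of these data known. Named genes were the members, their neighbours at the strongest or passing peak, and from each list the genes with a main-list summit and the 3 highest.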

Additional observations from a re-analysis of the deposited data

How the results depend on the processing

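The count of peaks at the 6 genes was 92 and kept within 1.5 times of that with windows of 500 or 2000 bases, with overlap in place of summits and in the conservative ranked list; it was 42 and 51 in the ranked lists of a single replicate. The count of passing peaks, 1, was 2 at an IDR of 0.05, 5 at that IDR in the conservative ranked list (an alternative chosen after seeing the data) and 0 at an IDR of 0.001, and 0 to 0 without either replicate. For the final lists it was 1 in the conservative list and with a window of 2000 bases, and 0 in both replicates' own lists. The median percentile of the strongest peak, 97.6, was 92.8 to 93.1 in the single replicates, but bed-3 had 60.0 without replicate 1 and 54.7 without replicate 2, against 96.1, and nhr-25 had 42.8 without replicate 1, against 79.1. The distance from bed-3 to a final summit was 63805 bases in the conservative list, against 401726 in the main one. Why these values moved was not tested; the single-replicate lists hold fewer peaks. No paired analysis was possible because there is 1 group of samples. Depth and the signal's scale are unknown, peaks are not replicates, and tissue is mixed.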

Other observations

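Peaks at the 6 genes lay in sequence slightly richer in G and C than the ranked list. The median over the 201 bases at a summit was 42.3%, against 38.3% for all ranked peaks and 45.8% for the main final list. Spearman's rho between signal and GC content was 0.23 over the 92 peaks and 0.28 over all ranked peaks, as a description, since overlapping peaks share sequence and all share libraries. Windows were of unique sequence throughout at 75 of the 92 summits, and most of the others were at grh-1. The share of such windows over all ranked peaks was not computed. The share of soft-masked bases had a median of 21.6% at the 92 peaks and 23.4% over the list. Within 200 bases of 14 of the 92 summits lay a non-coding RNA gene, and these summits were at nhr-25, lin-42 and bed-3. Some of them belong to overlapping peaks, and the share over all ranked peaks was not computed, so this count has no scale.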
